A study of Arabidopsis thaliana with 10 samples.

Results

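Plant cells can enlarge only as their wall yields, and EXPA8, EXPB3 and XTH32 encode wall-acting proteins of this process. Expansins loosen the wall without cutting its polymers: they weaken the contacts between cellulose and the other polysaccharides, and the wall then creeps under turgor. Xyloglucan endotransglucosylase/hydrolases (XTHs) cut xyloglucan, the main hemicellulose of the Arabidopsis primary wall, and join the cut end to another chain or to water. Both families have many members that are used in different organs and at different stages of growth.

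The members were the probe sets annotated to these 3 genes, and there were 3 of them among the 22810 probe sets of the array, 1 for each gene. EXPA8 (AT2G40610) is an alpha-expansin, EXPB3 (AT4G28250) a beta-expansin and XTH32 (AT2G36870) an XTH. They were chosen by their measured levels in the 6 groups of these same arrays, low with far-red and high without it. Their levels and differences are therefore given as a description, with no test, and the tests below concern other genes. The array annotation names no genome build, so no coordinates are given.

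RNA was measured on Affymetrix ATH1 microarrays, which read 1 labelled sample each, in whole Arabidopsis thaliana seedlings without true leaves (cotyledons, hypocotyl and primary root), pooled by 300. All seedlings were grown at 22 °C in continuous light. FR marks seedlings kept under far-red light before they were moved to white light, and D marks seedlings that were not; the sample names call these Dpretreated without saying what D stands for. The series title says that the far-red treatment was given to block chloroplast development.

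The 10 arrays formed 6 groups. The gun1,gun5 double mutant, which is changed in 2 components of signalling from the chloroplast to the nucleus, gave 2 arrays with far-red (gun1gun5_FR) and 2 without (gun1gun5_D). The phyA null mutant (stock N6219), which lacks the far-red photoreceptor phytochrome A, gave 1 array with far-red (phyA_FR) and 1 without (phyA_D). Wild type Col-0 (stock N1092) gave 2 arrays with far-red (WT_FR) and 2 without (WT_D). The labels do not name the accession in which the mutants were made, and the mutated genes were not checked here because their probe sets were not named. The medium had no sucrose for 8 arrays. Both WT_D arrays are listed with 1.5% sucrose, and WT_D replicate 2 also with 5 µM norflurazon, an inhibitor of carotenoid synthesis. As listed, the 2 WT_D arrays thus differed from each other in norflurazon and are not replicates of 1 treatment. The spread between them, which enters the errors below, may include that difference. In wild type, far-red and medium therefore cannot be told apart, whereas both mutants had the same medium with and without far-red. Between WT_D and either mutant in D, genotype and medium cannot be told apart either.

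Levels are the deposited probe-set intensities on a linear scale. Log2 differences were taken on log2(intensity + 16), so they run smaller than ratios of the intensities where signal is low. Their errors are standard errors (SE) from 1 model over the 10 arrays. The number of arrays limits every comparison: the phyA groups had no replicate, and the labels do not say that replicates came from separate cultures.

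EXPA8 had lower levels with far-red than without it in all 3 genotypes. Its intensity was 7.1 and 4.4 on the gun1gun5_FR arrays, against 38.3 and 95.6 on the gun1gun5_D arrays. It was 66.3 on the phyA_FR array, against 162.7 on the phyA_D array. In wild type it was 16.3 and 17.8 on the WT_FR arrays, against 271.0 and 174.4 on the WT_D arrays. Every FR array thus lay below every D array of its own genotype, while phyA_FR lay inside the range of gun1gun5_D.

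On the log2(intensity + 16) scale, EXPA8 was lower in WT_FR than in WT_D by a difference of −2.82 (SE 0.29), a 7.07-fold difference. In this contrast EXPA8 ranked 11 from the lowest of the 13647 probe sets tested. Between FR and D it ranked 50 in gun1gun5 and 8 in phyA. The members were chosen as low with far-red, so nothing is read from their ranks here or below. Read as plain intensities, the geometric mean of WT_FR (17.0) was 7.84% of that of WT_D (217.4). In gun1gun5 the log2 difference between FR and D was −1.84 (SE 0.29). Both gun1gun5_FR arrays were under an intensity of 16, where values are poorly resolved, so the fold is a bound: EXPA8 was at least 3.78-fold lower in gun1gun5_FR than in gun1gun5_D. The gun1gun5_D arrays differed 2.5-fold from each other, and without gun1gun5_D replicate 2 the difference was −1.32. In phyA the difference was −1.12, with phyA_FR at 40.7% of phyA_D.

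EXPB3 had low and close levels in the far-red groups of gun1gun5 and wild type, and high levels in phyA with or without far-red. Its intensity was 21.2 and 24.7 in gun1gun5_FR, against 40.2 and 70.4 in gun1gun5_D. It was 172.9 in phyA_FR, against 244.5 in phyA_D. In wild type it was 25.1 and 37.2 in WT_FR, against 189.8 and 197.9 in WT_D. The lowest D array of gun1gun5 was only a little above the highest FR array of wild type.

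The log2 difference of EXPB3 between FR and D was −0.84 (SE 0.20) in gun1gun5, a 1.79-fold difference, and −0.46 in phyA. In wild type it was −2.17 (SE 0.20), a 4.49-fold difference, ranked 40 from the lowest of all tested probe sets. The rank was 390 in gun1gun5 and 413 in phyA. As geometric means of the intensities, gun1gun5_FR held 43.0% of gun1gun5_D, phyA_FR 70.7% of phyA_D and WT_FR 15.8% of WT_D. The gun1gun5_D arrays differed 1.75-fold from each other, and the gun1gun5 difference was −0.53 without gun1gun5_D replicate 2.

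XTH32, the enzyme of the set, followed the same order of groups as EXPA8. Its intensity was 37.6 and 63.5 in gun1gun5_FR, against 175.9 and 227.5 in gun1gun5_D. It was 351.0 in phyA_FR, against 496.1 in phyA_D. In wild type it was 91.6 and 102.5 in WT_FR, against 545.5 and 610.0 in WT_D. None of the 6 groups overlapped another for this gene.

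For XTH32 the log2 difference between FR and D was −1.73 (SE 0.19) in gun1gun5, a 3.31-fold difference, and −0.48 in phyA. It was −2.39 (SE 0.19) in wild type, a 5.25-fold difference, ranked 25 from the lowest. The rank was 59 in gun1gun5 and 367 in phyA. The geometric mean of gun1gun5_FR was 24.4% of gun1gun5_D, phyA_FR was at 70.8% of phyA_D, and WT_FR at 16.8% of WT_D. Replicates of XTH32 lay within 1.69-fold of each other, the widest pair being the gun1gun5_FR arrays.

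**Figure D1:**
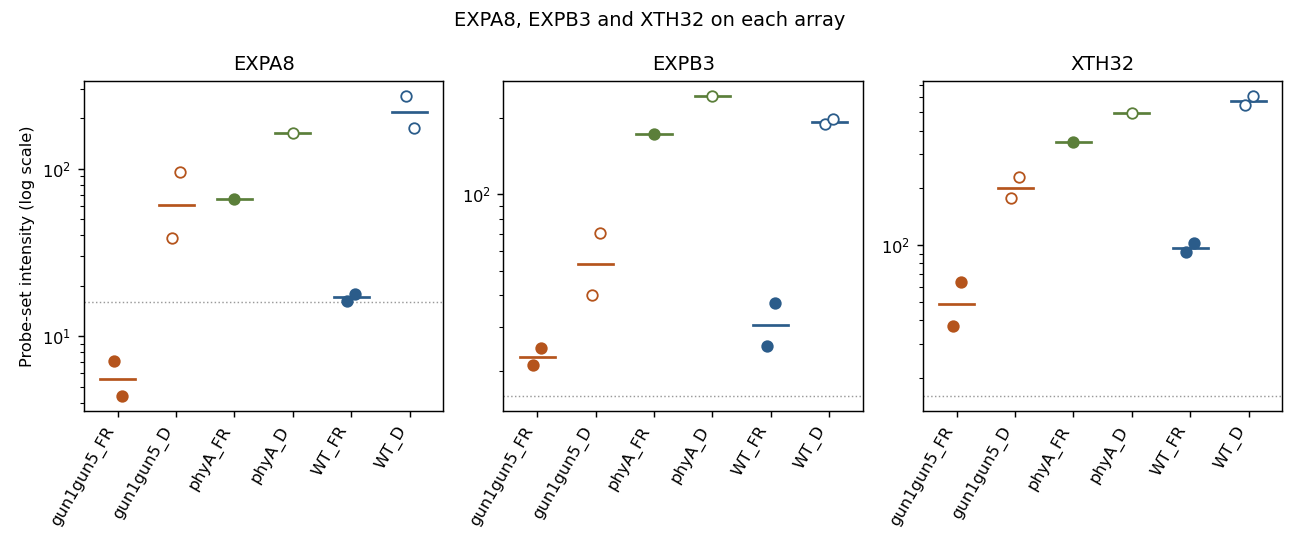
Probe-set intensity (log axis) of EXPA8, EXPB3 and XTH32 on each of the 10 arrays, by group; points are arrays, filled for FR and open for D, bars are geometric means, and the dotted line is an intensity of 16. In each genotype the FR arrays lie below the D arrays for all 3 genes, and for EXPA8 the gun1gun5_FR arrays (7.1 and 4.4) lie under the dotted line.

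Groups without overlap are common with so few arrays. The FR arrays of all tested probe sets lay below the D arrays of their genotype with no overlap for 31.2% in gun1gun5 and 31.6% in wild type, and for 17.5% in both at once, which is the pattern of the 3 members. Since the members were picked for their levels, nothing is read from that count. Between the lone phyA arrays, EXPA8 was 2.17-fold lower in phyA_FR, where 0.117% of the tested probe sets (16 of 13647) were at least 2-fold lower, and nothing is read from this either. EXPB3 was 1.38-fold and XTH32 1.4-fold lower in phyA_FR.

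The gap between FR and D was narrower in gun1gun5 than in wild type for EXPB3 and XTH32. The difference of the 2 log2 responses (gun1gun5 minus WT) was 1.33 (SE 0.28) for EXPB3 and 0.66 (SE 0.27) for XTH32, and for XTH32 it was 0.38 without gun1gun5_FR replicate 2. For EXPA8 it was 0.98 (SE 0.41), but this was not resolved, since both gun1gun5_FR arrays were under an intensity of 16. It was 0.38 with 1 in place of 16 added to the intensities and 0.46 without gun1gun5_D replicate 1, and as geometric means of the intensities the FR share of D was 9.24% in gun1gun5 and 7.84% in wild type. The contrast includes the WT_D arrays with their different medium.

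In gun1gun5_D the log2 level was below that of WT_D by a similar amount for all 3 members, with differences of −1.59 (SE 0.29) for EXPA8, −1.59 (SE 0.20) for EXPB3 and −1.46 (SE 0.19) for XTH32. As geometric means of the intensities, gun1gun5_D held 27.8% of WT_D for EXPA8, 27.4% for EXPB3 and 34.7% for XTH32. The EXPA8 difference was −1.07 without gun1gun5_D replicate 1. Only WT_D was listed with sucrose, so genotype and medium cannot be told apart in these differences. After far-red, gun1gun5_FR held 32.8% of WT_FR for EXPA8, 74.9% for EXPB3 and 50.4% for XTH32. The log2 difference of gun1gun5_FR from WT_FR was −0.79 (SE 0.19) for XTH32, −0.61 (SE 0.29) for EXPA8 and −0.27 (SE 0.20) for EXPB3. For EXPA8 the bound is at least 1.06-fold lower, as both mutant arrays were under an intensity of 16, and the difference was −1.45 and −0.22 with 1 and 64 in place of 16 added. For EXPB3 the difference was little more than its standard error, and it was −0.08 without WT_FR replicate 2 and −0.45 without WT_FR replicate 1. The XTH32 difference was −0.51 without gun1gun5_FR replicate 1 and −1.07 without gun1gun5_FR replicate 2. Of all tested probe sets, 27.5% lay lower in gun1gun5_D than in WT_D with no overlap, and 28.2% lay lower in gun1gun5_FR than in WT_FR, as each member did in both.

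In D, the phyA array had member levels near those of WT_D, on a medium with no sucrose listed. For EXPA8 the phyA_D level (162.7) was 74.8% of the WT_D mean, for EXPB3 (244.5) it was 126% and for XTH32 (496.1) it was 86.0%. The log2 differences of phyA_D from WT_D were −0.39, 0.31 and −0.21 for these 3 genes. Against gun1gun5_D, which shares its medium, phyA_D was higher by 1.20 for EXPA8, 1.90 for EXPB3 and 1.24 for XTH32 on the log2 scale. The part of sucrose and norflurazon in the WT_D levels was not tested. The lone phyA_D array has no replicate, and its accession is not given.

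After far-red, phyA had levels well above those of the other genotypes. The phyA_FR log2 level was above that of gun1gun5_FR by 1.92 for EXPA8, 2.28 for EXPB3 and 2.49 for XTH32, all on a medium without sucrose. It was above that of WT_FR by 1.32, 2.01 and 1.70 for the same genes. With 1 array these differences have no error of their own.

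Ordered by mean log2 level, the groups ran from WT_D down through phyA_D, phyA_FR, gun1gun5_D and WT_FR to gun1gun5_FR for EXPA8 and XTH32. For EXPB3 phyA_D stood above WT_D, and the rest of the order was the same. For EXPA8 the phyA_FR array lay 0.08 above the gun1gun5_D mean and inside its range. This is less than the model's SD of 0.29, which limma draws toward the spread of other probe sets. The gap of 0.39 between phyA_D and WT_D was above that SD, but below the SD of the 2 WT_D arrays themselves (0.42). Those 2 arrays also differed in norflurazon as listed, so their SD is not that of replicates alone. The 2 gun1gun5_D arrays had an SD of 0.73. For EXPB3 the gap of 0.15 between phyA_FR and WT_D was below the model's SD of 0.20. The gaps of 0.31 between phyA_D and WT_D and 0.27 between gun1gun5_FR and WT_FR were above it. Both were below the SD of the gun1gun5_D arrays (0.44). For XTH32 the gap of 0.21 between WT_D and phyA_D was about the model's SD of 0.19, and the gun1gun5_FR arrays had an SD of 0.40. The other gaps were 0.48 or more. Over the 10 arrays the log2 levels of the members correlated at Pearson's r of 0.96 for EXPA8 with XTH32, 0.957 for EXPB3 with XTH32 and 0.92 for EXPA8 with EXPB3. These arrays share groups, and the genes were picked for this pattern, so the values describe it only.

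Whole seedlings were used, so fewer cells of a type and less RNA per cell cannot be told apart. Of the marker genes listed for 7 tissues, 6 were named in the array annotation used. The 3 found for cotyledon mesophyll were RCA (Rubisco activase), SBPASE and PRK (both Calvin cycle enzymes). Their summed intensity was 6893.5 to 7139.3 in gun1gun5_FR, against 8195.5 to 9000.9 in gun1gun5_D. It was 7749.5 in phyA_FR, against 7740.2 in phyA_D, and 5723.0 to 5979.5 in WT_FR, against 6827.2 to 7226.7 in WT_D. The sum was thus lower with far-red in gun1gun5 and in wild type. In wild type 2 of the 3 genes fell (SBPASE and PRK), where 12.6% of all tested probe sets fell, and in gun1gun5 1 of the 3 (RCA), where 8.06% of all fell. The SBPASE call held in all 16 alternatives. The PRK call (log2 difference −0.32, SE 0.10, limma adjusted p = 0.0361) was lost in 9 of 16, among them leaving out either WT_FR array (−0.36 and −0.27), either WT_D array (−0.38 and −0.26) or either gun1gun5_FR array (−0.32). The RCA call (−0.32, SE 0.08, limma adjusted p = 0.025) was lost in 7 of 16, with −0.07 after quantile normalization, −0.35 and −0.30 without gun1gun5_FR replicate 1 or 2, and −0.36 and −0.29 without gun1gun5_D replicate 1 or 2.

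The only seed reserve marker found, ICL, encodes isocitrate lyase of the glyoxylate cycle, which turns seed oil into sugar, and it ran the other way. Its intensity was 1850.4 and 2281.5 in gun1gun5_FR, against 892.6 and 740.3 in gun1gun5_D. It was 760.1 in phyA_FR, against 458.5 in phyA_D. In wild type it was 2625.9 and 2504.0 in WT_FR, against 803.4 and 696.2 in WT_D. ICL rose by 1.32 (SE 0.14) in gun1gun5 (limma, Benjamini-Hochberg adjusted p = 0.000339) and by 1.76 (SE 0.14) in wild type (limma adjusted p = 3.72e-05) on the log2 scale. The part of mesophyll or reserve tissue in the member differences was not tested. The root hair markers found were the expansins EXPA7 and EXPA18, with sums of 50.4 to 76.7 over all arrays. No marker of endodermis, root epidermis and cap, xylem or cuticle was named in the annotation.

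Of 26 other named probe sets (17 expansins and expansin-like genes, 9 XTHs), 13 were above the filter on low levels and were tested, 9 and 4 of them in the 2 families. In wild type, 3 of the 13 fell with far-red (EXPA9, EXPA15 and EXGT-A3) and 1 rose (XTH18), at a limma adjusted p under 0.05. Over all tested probe sets 12.6% fell and 9.72% rose, 22.4% together, so nothing is read from the count of 4 in 13. The median log2 difference of the 13 was −0.17, against −0.01 over all tested probe sets. In gun1gun5, 1 fell (EXGT-A3) and 0 rose, against 8.06% and 6.38% of all (14.4% together), with a median of 0.06 against 0.00. None of the 13 differed 2-fold between the phyA arrays, and their median there was 0.12. Of all tested probe sets, 0.249% were at least 2-fold higher and 0.117% lower in phyA_FR, so nothing is read from this count. The families' lists were drawn up with earlier results of these data known.

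Among the other alpha-expansins, EXPA9 was the one with the clearest fall in wild type. Its intensity was 98.4 and 94.7 in WT_FR, against 179.9 and 177.6 in WT_D, a log2 difference of −0.79 (SE 0.15, limma adjusted p = 0.00398). In gun1gun5 it was 94.9 and 131.2 in gun1gun5_FR, against 126.4 and 139.2 in gun1gun5_D, and these overlapped (−0.22, SE 0.15, limma adjusted p = 0.359). Unlike the members, EXPA9 was low in both phyA groups, at 85.7 in phyA_FR and 100.6 in phyA_D. Of the 6 groups, WT_D had the highest EXPA9 levels.

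EXPA15 was closer to the members in its order of groups. Its intensity was 54.0 and 55.8 in gun1gun5_FR, against 63.4 and 69.8 in gun1gun5_D. It was 79.7 in phyA_FR, against 71.8 in phyA_D, and 50.8 and 51.5 in WT_FR, against 72.3 and 79.9 in WT_D. The wild-type fall of 0.45 on the log2 scale (SE 0.12, limma adjusted p = 0.0201) did not pass without WT_FR replicate 1 (−0.45), without WT_FR replicate 2 (−0.46) or without WT_D replicate 2 (−0.40). Over the 10 arrays its log2 level correlated with those of EXPB3 at 0.901, XTH32 at 0.896 and EXPA8 at 0.846, which was among the highest values in the families.

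The root hair expansins EXPA7 and EXPA18 passed no test, with intensities of 28.0 to 49.2 and 19.8 to 37.5 over the 10 arrays. EXPA4 ranged over 39.2 to 73.7, EXPB2 over 21.4 to 33.6 and the expansin-like EXLB1 over 34.5 to 56.2, and none passed a test in any of the 5 contrasts. EXPA20 fell by 0.74 (SE 0.16, limma adjusted p = 0.0212) in gun1gun5_D relative to WT_D, with intensities of 19.4 and 14.9 against 41.7 and 37.0. This call was lost without any 1 of these 4 arrays. The difference was −0.84 and −0.64 without gun1gun5_D replicate 1 or 2 and −0.68 and −0.80 without WT_D replicate 1 or 2. The 2 groups also differed in medium, so genotype and medium cannot be told apart.

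The expansin-like gene EXLA1 was highest in gun1gun5_FR. Its intensity was 296.8 and 200.5 in gun1gun5_FR, 156.3 and 100.2 in gun1gun5_D, 143.2 in phyA_FR, 104.1 in phyA_D, 168.8 and 84.7 in WT_FR, and 109.9 and 98.0 in WT_D. In gun1gun5_FR it was above WT_FR by 0.93 on the log2 scale (SE 0.28, limma adjusted p = 0.0423). That call was lost in 7 of 16 alternatives, the difference being 0.67 when gun1gun5_FR replicate 1 was left out, 1.20 when replicate 2 of that group was, and 0.49 when WT_FR replicate 2 was. It was also lost, at an unmoved 0.93, without WT_D replicate 1 or 2.

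The beta-expansin EXPB1 lay below the filter but had group levels in much the order of EXPB3. Its intensity was 4.7 and 3.2 in gun1gun5_FR, against 5.4 and 13.8 in gun1gun5_D. It was 16.5 in phyA_FR, against 25.2 in phyA_D, and 3.2 and 5.1 in WT_FR, against 22.2 and 23.4 in WT_D. With no filter, an alternative under which 22746 probe sets were tested, EXPB1 fell in wild type (limma adjusted p = 0.0117), being at least 1.42-fold lower in WT_FR, a bound because both WT_FR arrays were under 16. EXPB1 was singled out after its values were seen, and most of its values were under 16, where they are poorly resolved. The other 7 expansins and expansin-like genes below the filter (EXPA16, EXPA21, EXPA24, EXPB5, EXLA2, EXLA3 and AT4G30380) passed no test without it.

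**Figure D2:**
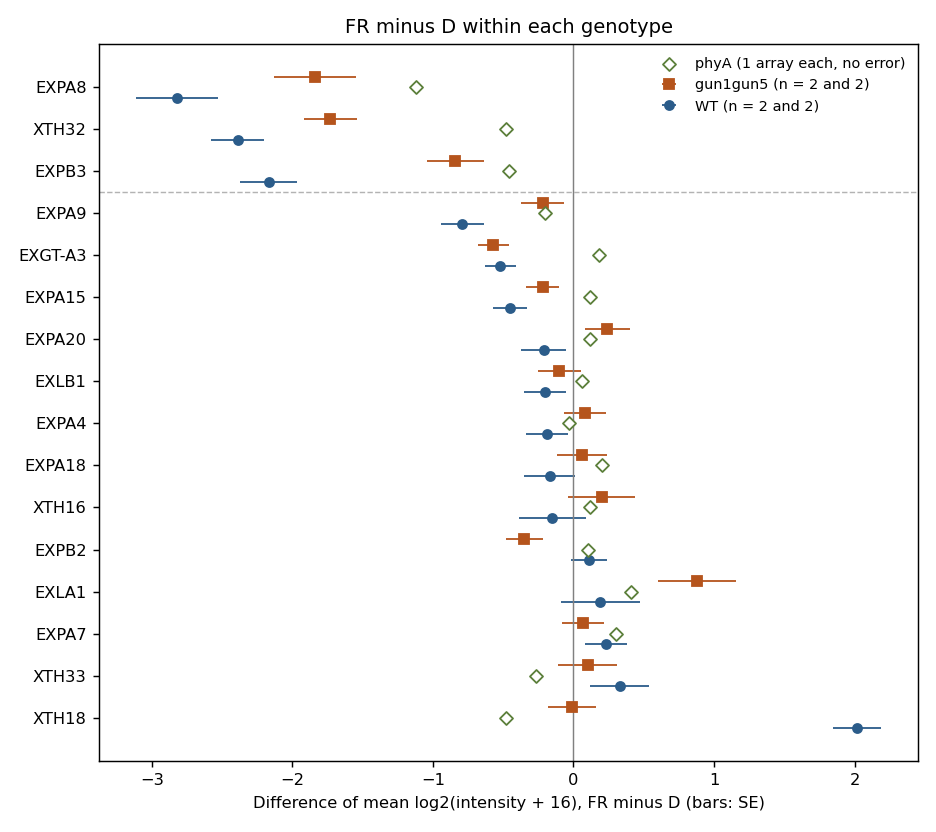
Difference of mean log2(intensity + 16), FR minus D, for the 3 members (above the dashed line) and the 13 other tested expansin and XTH genes, in gun1gun5 (squares), phyA (open diamonds, 1 array each, no error) and wild type (circles); bars are SE. The members, chosen by these levels, lie between −2.82 and −2.17 in wild type, most other genes lie near 0, and XTH18 lies at 2.02 in wild type and −0.01 in gun1gun5.

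Within the XTH family, XTH18 moved opposite to XTH32 in wild type. Its intensity was 418.1 and 291.9 in WT_FR, against 76.7 and 72.1 in WT_D. The rise was 2.02 on the log2 scale (SE 0.17, limma adjusted p = 5.93e-05), a 4.05-fold difference. In gun1gun5 it was 57.2 and 55.5 in gun1gun5_FR, against 66.1 and 48.9 in gun1gun5_D, which overlapped (−0.01, SE 0.17, limma adjusted p = 0.97). It was 87.4 in phyA_FR, against 128.0 in phyA_D. High levels of XTH18 were thus seen on the WT_FR arrays alone.

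The responses of XTH18 in gun1gun5 and wild type differed by −2.03 (SE 0.25, limma adjusted p = 0.00334), and XTH18 was the only one of the 13 family genes called in that contrast, in which 2.03% of all tested probe sets were called lower and 0.791% higher (2.82% together). After far-red, XTH18 was lower in gun1gun5_FR than in WT_FR (log2 difference −2.34, SE 0.17, limma adjusted p = 2.18e-05), where 10.4% of all were called lower and 9.80% higher (20.2% together). Its calls held under every alternative tried. Its paralogs XTH19 and XTH20 were below the filter, with intensities of 18.0 and 18.1 for XTH19 in WT_FR, against 21.9 and 18.7 in WT_D. For XTH20 they were 28.3 and 19.7 in WT_FR, against 23.5 and 21.0 in WT_D, so neither showed the rise of XTH18.

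EXGT-A3, an XTH gene also known as XTH27, was brightly expressed and fell in gun1gun5 and in wild type, the genotypes with 2 arrays a group. Its intensity was 1212.5 and 1365.8 in gun1gun5_FR, against 1787.8 and 2055.2 in gun1gun5_D. It was 1668.1 in phyA_FR, against 1474.3 in phyA_D, and 1051.3 and 1010.2 in WT_FR, against 1560.3 and 1419.2 in WT_D. The log2 difference was −0.57 in gun1gun5 (SE 0.11, limma adjusted p = 0.00883) and −0.52 in wild type (SE 0.11, limma adjusted p = 0.00791). The gun1gun5 call was lost without gun1gun5_FR replicate 1 (−0.48) or gun1gun5_D replicate 2 (−0.47), and the wild-type call without WT_D replicate 1 (−0.46). In phyA the difference ran the other way, at 0.18 with 1 array each.

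XTH16 ranged over 184.0 to 327.1 and XTH33, a membrane-bound member of the family, over 21.8 to 52.6, and neither passed a test. The XTH genes below the filter were XTH19, XTH20, XTH21, XTH26 and XTH29. XTH21 and XTH26 stayed at or below 1.8 on all arrays. Without the filter XTH19 was lower in gun1gun5_FR than in WT_FR (limma adjusted p = 0.0124), at intensities of 5.9 and 2.3 against 18.0 and 18.1. Both mutant values were under 16, so the fold is only a bound, at least 1.13-fold lower.

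**Figure D3:**
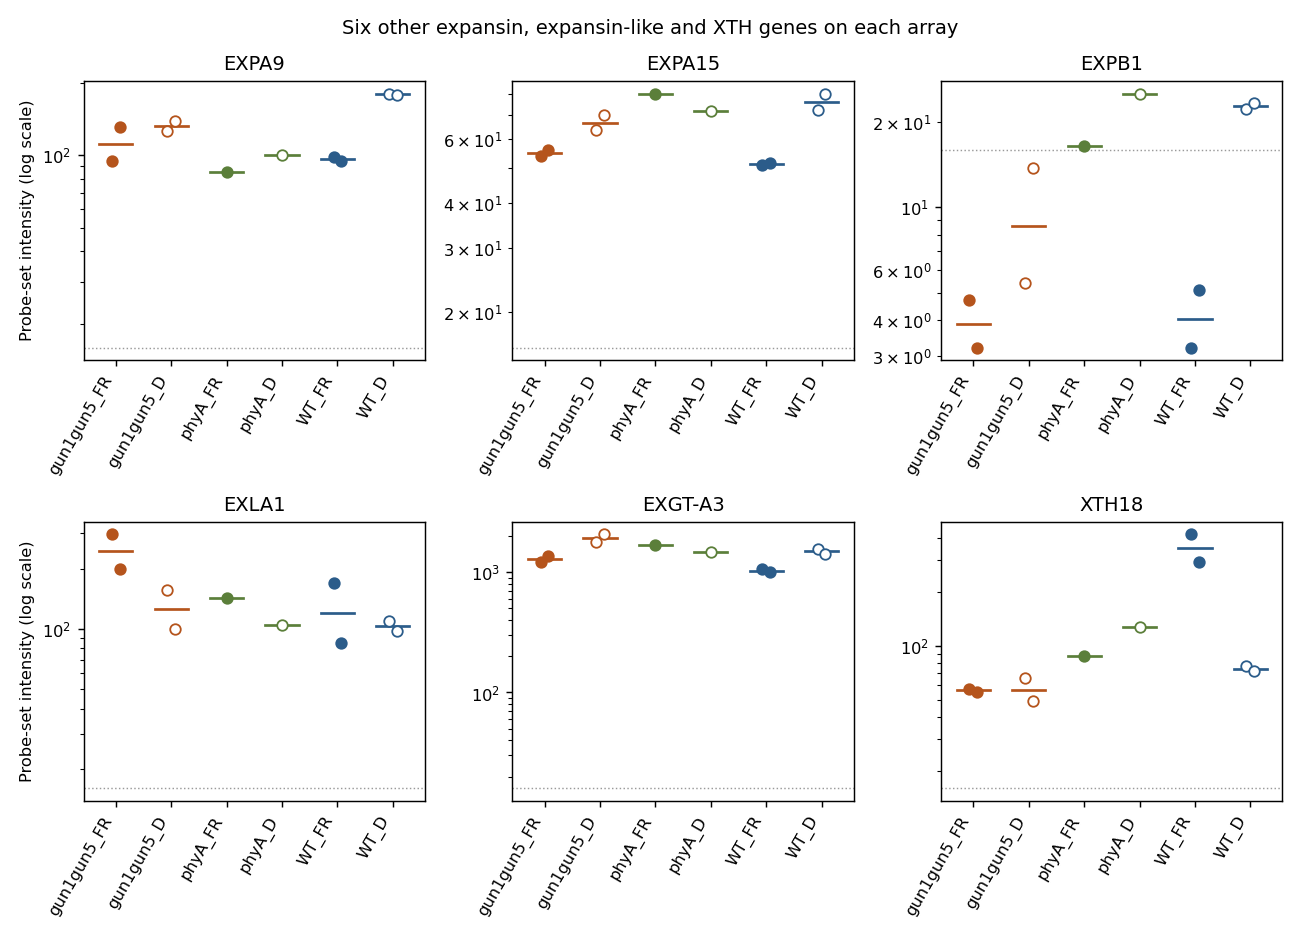
Probe-set intensity (log axis) on each of the 10 arrays of 6 other expansin, expansin-like and XTH genes, by group; points are arrays, filled for FR and open for D, bars are geometric means, and the dotted line is an intensity of 16. EXPB1 is low in gun1gun5_FR and WT_FR (at most 5.1) and highest in phyA_D (25.2), XTH18 is high only on the WT_FR arrays (418.1 and 291.9), and EXLA1 is highest in gun1gun5_FR.

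Between gun1gun5 and wild type after far-red, 1 of the 13 was higher in gun1gun5_FR (EXLA1) and 1 lower (XTH18), where 20.2% of all tested probe sets were called. Without far-red, where the media also differed, 1 was lower in gun1gun5_D (EXPA20). Of all tested probe sets, 5.14% were lower and 4.06% higher there (9.2% together). The medians were −0.09 and −0.16, against 0.03 and 0.00 over all tested probe sets.

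**Figure D4:**
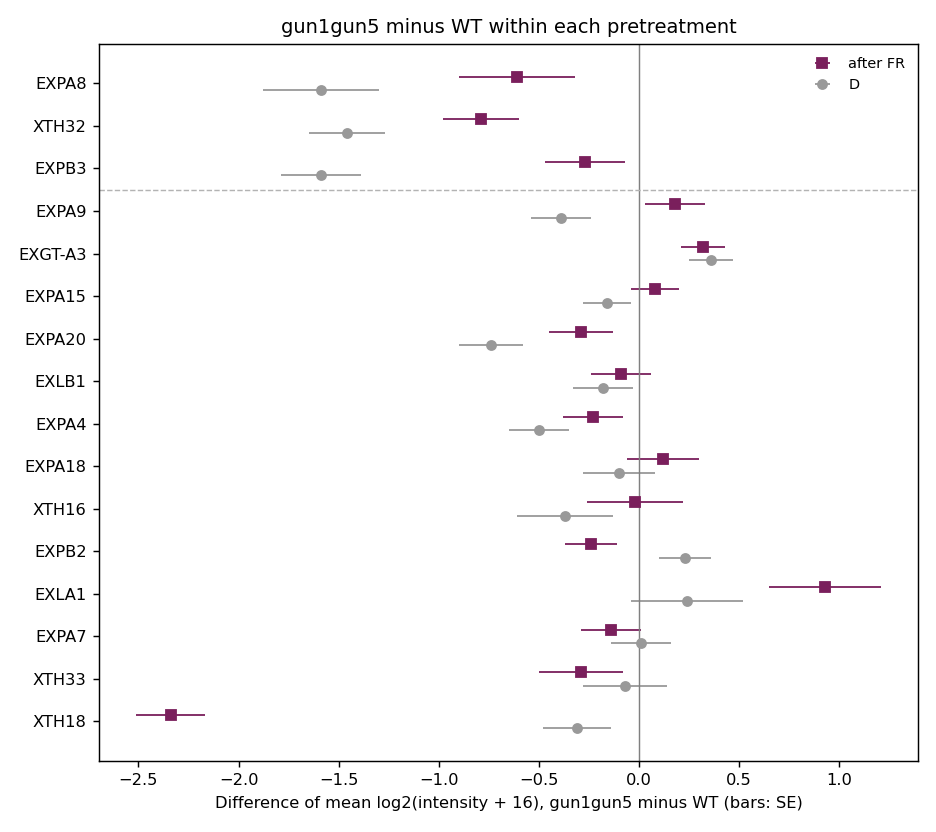
Difference of mean log2(intensity + 16), gun1gun5 minus WT, for the 3 members (above the dashed line) and the 13 other tested expansin and XTH genes, after far-red (squares) and in D (circles); bars are SE. In D the members, chosen by these levels, lie between −1.59 and −1.46 and EXPA20 at −0.74, and after far-red XTH18 lies at −2.34. In D the genotypes also differ in medium.

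Genes that make the substrate of XTHs were also examined. Of the listed genes of xyloglucan synthesis, 4 were named and 3 tested, all of the CSLC family, whose products make the glucan backbone of xyloglucan. In wild type 1 of 3 fell with far-red (CSLC5), where 12.6% of all tested probe sets fell. CSLC5 fell by 0.74 (SE 0.12, limma adjusted p = 0.00208), with intensities of 81.1 and 83.1 in WT_FR, against 155.9 and 140.3 in WT_D. In gun1gun5_D relative to WT_D, 2 of 3 fell, where 5.14% of all tested probe sets fell. Nothing is read from counts among 3 genes, and here genotype and medium cannot be told apart. The log2 difference was −0.66 for CSLC04 (SE 0.13, limma adjusted p = 0.014) and −0.57 for CSLC5 (SE 0.12, limma adjusted p = 0.0198). The CSLC04 call was lost without gun1gun5_D replicate 2 (−0.58) or either WT_D array (−0.67 and −0.66), and the CSLC5 call without gun1gun5_D replicate 1 (−0.49) or WT_D replicate 1 (−0.50). CSLC6 passed no test and ranged over 61.6 to 91.3. No CSLC gene passed between FR and D in gun1gun5, where 14.4% of all tested probe sets were called. The phyA_D array differed from WT_D by −0.07 for CSLC04 and −0.34 for CSLC5.

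COB, which anchors at the membrane and guides cellulose deposition in elongating cells, was the only named gene of cellulose synthesis. Its intensity was 558.2 and 449.7 in WT_FR, against 803.7 and 642.9 in WT_D, a fall of 0.51 (SE 0.16, limma adjusted p = 0.0469) that was lost in 9 of 16 alternatives. These include leaving out WT_FR replicate 2 (−0.36) or WT_D replicate 1 (−0.35), and any 1 of the 4 gun1gun5 arrays (−0.51). In gun1gun5 COB ran the other way, at 721.3 and 565.3 in gun1gun5_FR, against 511.5 and 489.7 in gun1gun5_D. That difference was 0.34 (SE 0.16) and was not called (limma adjusted p = 0.186). In phyA the COB difference between FR and D was 0.26, with 1 array each. HAT2, an auxin-induced homeodomain regulator, fell by 0.69 in wild type (SE 0.16, limma adjusted p = 0.0127), with intensities of 32.8 and 35.5 in WT_FR, against 56.1 and 75.1 in WT_D. That call was lost without WT_FR replicate 1 (−0.65) or WT_D replicate 2 (−0.52). HYH, the homolog of the light regulator HY5, passed no test and ranged over 120.2 to 225.9. No plasma membrane proton pump and no listed wall glycoprotein was named in the array annotation used. That annotation lists no gene for 8730 of the 22810 probe sets, so the array may still carry such genes.

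For each member, the genes whose log2 levels were most like it over the 10 arrays were ranked by Pearson's r among 7376 single-gene tested probe sets. Closest to EXPA8 were ZW9 (0.987), AT1G79160 (0.982), AT3G48440 (0.979), GPDHC1 (0.969) and AT1G29660 (0.969). Pearson's r does not show the size of a difference. AT1G79160 ranged only over 152.7 to 205.2 and AT3G48440 over 18.5 to 55.8, against 4.4 to 271.0 for EXPA8. AT1G29660 was at 51.0 and 38.1 in gun1gun5_FR, 68.0 and 183.0 in gun1gun5_D, 185.1 in phyA_FR, 320.1 in phyA_D, 40.4 and 65.8 in WT_FR, and 333.0 and 347.5 in WT_D. Its difference between the gun1gun5_D arrays ran the same way as that of EXPA8.

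Closest to EXPB3 were AOP1 (0.989), AT3G07010 (0.983), GH9C2 (0.982), AT3G45210 (0.982) and AT1G75900 (0.979). GH9C2 encodes a glycosyl hydrolase of family 9, the family of plant endoglucanases. Its intensity was 27.3 and 33.0 in gun1gun5_FR, 40.5 and 57.7 in gun1gun5_D, 132.6 in phyA_FR, 115.5 in phyA_D, 30.3 and 44.7 in WT_FR, and 138.4 and 141.3 in WT_D. Closest to XTH32 were AT5G41400 (0.987), LCR68 (0.982), AT1G04680 (0.978), AT2G44940 (0.978) and AT1G21050 (0.977). LCR68, a small cysteine-rich defensin-like protein, was at 85.1 and 120.0 in gun1gun5_FR, 348.0 and 361.7 in gun1gun5_D, 581.9 in phyA_FR, 927.4 in phyA_D, 160.1 and 244.4 in WT_FR, and 743.0 and 700.8 in WT_D. No other expansin or XTH gene was among the 5 closest of any member. The arrays of a group share their treatment, so r reflects the group means above all.

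**Figure D5:**
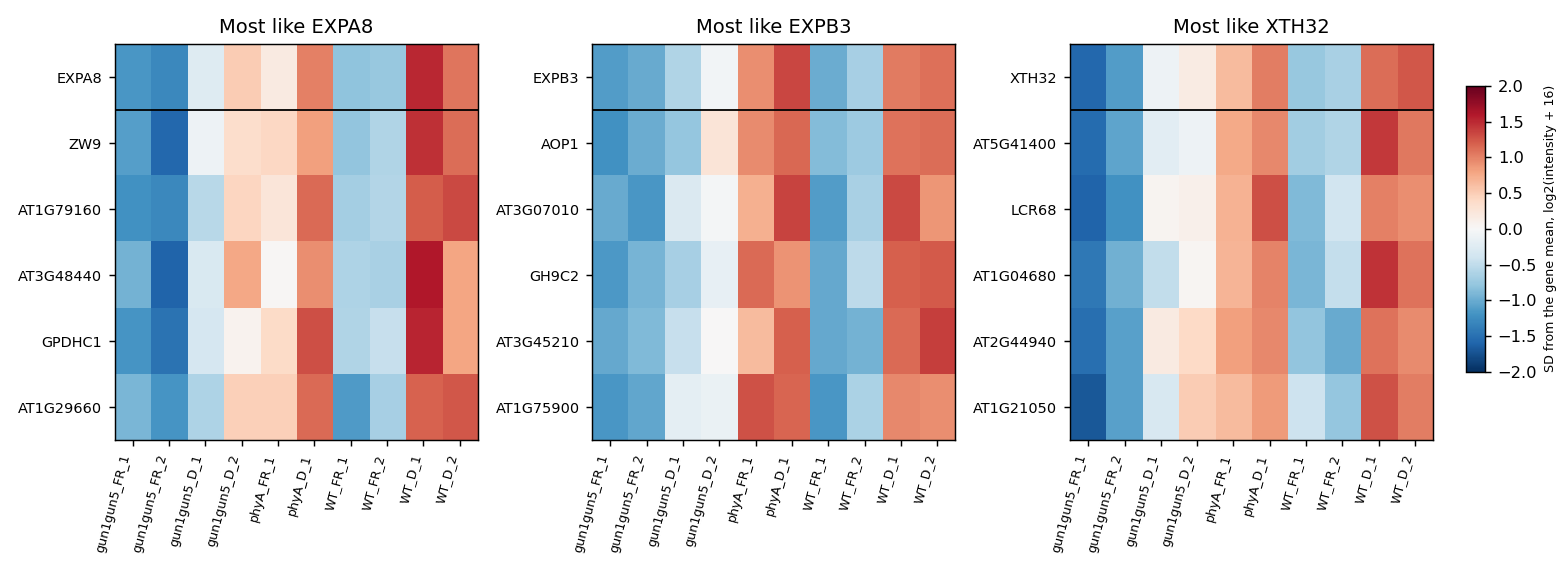
Log2(intensity + 16) of each member (top row of each panel) and of the 5 genes most like it, on each of the 10 arrays, as SD from the mean of that gene over the arrays (blue below, red above). Both gun1gun5_FR and both WT_FR arrays are below the mean for every gene shown, and both WT_D arrays and the phyA_D array are above it.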

How the data were processed

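RNA of 10 seedling pools was measured on ATH1 arrays. The authors deposited linear probe-set intensities scaled so that the trimmed mean of each array is about 100 (100.008 to 100.01, found from the values); summarisation software is not given in the sources used here. Array medians were 35.6 to 40.4. Of 22810 probe sets, 13513 were listed with 1 gene, 503 with several, 8730 with none, and 64 were controls; RefSeq (TAIR10.1) held the gene of 13436 single-gene probe sets.

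Intensities were taken to log2(value + 16). Probe sets with a mean above the 40th percentile (log2 level 5.35) were fitted with limma 3.58.1 in R 4.3.3 as 6 group means with a variance trend (4 residual, 6.3 prior degrees of freedom). P-values are two-sided and adjusted by Benjamini-Hochberg over 13647 probe sets; calls are at 0.05. The labels do not say that replicates are separate cultures, so p-values measure only the spread between these samples. For WT_D that spread includes the listed difference in norflurazon. Fits were tested on simulated data.

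The members and gene lists were chosen with earlier results of these data known. Named were the members, every tested expansin and XTH gene, up to 4 tested genes of other lists with the lowest adjusted p between FR and D, and the 5 genes most like each member. The list entries FDH and PRP39 matched other genes of the same abbreviation and were left out. Comparisons between groups share arrays and are not independent. Alternatives were pseudocounts of 1 and 64, quantile normalization, no filter or the 60th percentile, eBayes without a trend, fits with only the groups compared, a replicate block, and leaving out each replicated array. The probe sequences and the members' transcript sequences were not used here.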

Additional observations from a re-analysis of the deposited data

Results flagged for a closer look

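XTH18 stood out because its response to far-red differed between gun1gun5 and wild type in the test of that difference itself (log2 difference of responses −2.03, SE 0.25, limma Benjamini-Hochberg adjusted p = 0.00334). It was −0.01 (SE 0.17) between FR and D in gun1gun5 and 2.02 (SE 0.17) in wild type. All 4 gun1gun5 arrays lay between 48.9 and 66.1, while both WT_FR arrays (418.1 and 291.9) lay above both WT_D arrays (76.7 and 72.1). The WT_D arrays differ from the rest in medium, and the part of the medium was not tested. The phyA_D array, without sucrose, was at 128.0.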

How the results depend on the processing

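No direction turned under any alternative run. Of the results that answer a comparison, 135 alternative values stayed within the model's SD or within 1.5 times the count and 39 moved. Of the other results 544 stayed, 24 moved and 73 lost their call. With pseudocounts of 1 and 64, the EXPA8 difference between FR and D was −3.22 and −0.87 in gun1gun5, and −3.60 and −1.80 in wild type. For EXPB3 it was −1.18 and −0.44 in gun1gun5 and −2.63 and −1.44 in wild type, and for XTH32 −2.01 and −1.22 in gun1gun5 and −1.99 (pseudocount 64) in wild type. Leaving out single arrays gave −2.36 to −1.32 for EXPA8, −1.15 to −0.53 for EXPB3 and −2.01 to −1.44 for XTH32 in gun1gun5, and −3.12 to −2.53 for EXPA8 in wild type. Calls among the 13 other family genes changed as follows. Between FR and D in gun1gun5 (1 call) there were 2 with the compared groups alone and 0 to 2 over the arrays left out. Between gun1gun5_FR and WT_FR (2 calls) there was 1 with the compared groups alone and 1 to 2 over the arrays left out. With no filter, which brings in further family genes, the count there stayed at 2, but EXLA1 was lost and XTH19 was called lower. Between gun1gun5_D and WT_D (1 call) there were 0 with no filter, 0 at the 60th percentile and 0 to 1 over the arrays left out. The fit with the replicate block gave 2 calls between FR and D in gun1gun5 and 2 between gun1gun5_D and WT_D. Deviations of same-numbered arrays correlated at 0.0642 to 0.187 over 13647 probe sets, not above 0.1 for every pair, and no label says that a number marks a shared batch. The likeness values, recomputed with both pseudocounts and with single arrays left out (chosen after seeing the data), stayed between 0.953 and 0.995. Intensities under 16 limit EXPA8 in gun1gun5_FR and most of EXPB1. Probe sets of other family genes were not named and were not analysed here, and no array of phyA has a replicate.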
